A study of Mus musculus with 9 samples.

Results

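A set of 10 genes of the calcineurin and NFAT pathway and of muscle fibre type was examined in the gastrocnemius, a muscle of the calf, of newborn mice lacking exon 11 of Shank3 and of their wildtype controls. The 10 genes were taken by symbol from the 55471 gene IDs of the count table, and each symbol matched 1 ID. They were the calcineurin subunits Ppp3ca, Ppp3cb and Ppp3r1, the transcription factors Nfatc1, Nfatc2 and Nfatc3, the calcineurin regulator Rcan1, and the transcription factors Sox6, Prox1 and Tbx15. RNA of 9 mice at postnatal day 0 to 1 on a C57BL/6 background was sequenced, 1 library per mouse. Homozygous Shank3Δ11(-/-) mice from matings of heterozygous C57BL/6JRj mice gave 5 libraries (KO1 to KO5), and Shank3(+/+) mice gave 4 (WT1 to WT4). The study left KO2 and KO4 out of its own analysis for too few reads, so the main comparison here has 3 Shank3Δ11(-/-) and 4 Shank3(+/+) mice, and the values over all 9 mice stand beside it. Neither litter nor dissection day is given in the sources used here, so that the p-values measure the spread between these mice.

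Calcineurin is a phosphatase that calcium and calmodulin switch on. It is built from a catalytic subunit, encoded by Ppp3ca, Ppp3cb or Ppp3cc, and a calcium-binding regulatory subunit, encoded by Ppp3r1 in most tissues. The active enzyme removes phosphates from NFAT proteins in the cytoplasm, which then enter the nucleus and bind DNA. In skeletal muscle, this route is known for its part in the slow fibre programme that follows sustained nerve activity. Both the phosphatase and the nuclear entry of NFAT are controlled at the level of the protein, which RNA counts do not measure.

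The libraries held 26444372 (KO5) to 40471957 (KO4) counts. The 2 libraries that the study left out held 28211941 (KO2) and 40471957 (KO4) counts in this table, within or above the range of the others. Each of the 10 genes had between 411 and 9452 counts in every mouse, a depth at which counting error is smaller than the spread between mice given below. Summed markers of skeletal muscle lay between 46697 and 54698 CPM (counts relative to library size, scaled by the TMM method) in all 9 mice. Markers of other cell types stood apart in some mice. Adipocyte markers summed to 281 CPM in KO5 and 25.9 CPM in KO1 and to at most 6.94 CPM elsewhere, and Schwann cell markers to 406 CPM in KO5 and at most 199 CPM elsewhere. Chondrocyte markers summed to 427 CPM in KO4 and at most 178 CPM elsewhere, and erythroid markers to 2545 CPM in KO1 and at most 959 CPM elsewhere. Osteoclast markers summed to 46.1 CPM in KO3 and 55.2 CPM in KO5 and to between 75.3 and 121.8 CPM elsewhere. Xist RNA exceeded 100 CPM in WT3, WT4, KO3 and KO5 and was below this level in the other mice. Counts over the whole of Shank3, 25.7 to 38.6 CPM over the 9 mice, do not test the loss of 1 exon.

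None of the 10 genes was called different between Shank3Δ11(-/-) and Shank3(+/+) muscle. All 10 passed the filter on low counts, 3 had a higher and 7 a lower mean in Shank3Δ11(-/-) mice, and the log2 fold changes lay between -0.18 (Prox1) and 0.23 (Ppp3ca). At the study's threshold of p below 0.05 with a false discovery rate below 25%, edgeR's quasi-likelihood test called 0 of the 10 genes and 0% of the 21809 genes tested. At an unadjusted p below 0.05 it held 0 of the 10 genes against 2.08% of all genes in the 7 mice, and 0 against 2.03% of all genes in the 9 mice. DESeq2 and limma-voom on the 7 mice also held 0 of the 10 at that p, against 1.8% and 1.95% of all genes. The study used limma and reported a large set of differentially expressed genes at its threshold in these 7 mice. At that threshold limma-voom here called 0 of the 21809 genes, and the source of this difference from the study was not tested. In none of the 10 were the CPM of the 3 and the 4 mice apart, a separation seen in 2.84% of all genes. The median log2 fold change of the 10 genes was -0.06, and that of all genes tested was -0.0081. In bulk tissue, fewer cells of a type and less RNA per cell cannot be told apart.

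**Figure D1:**
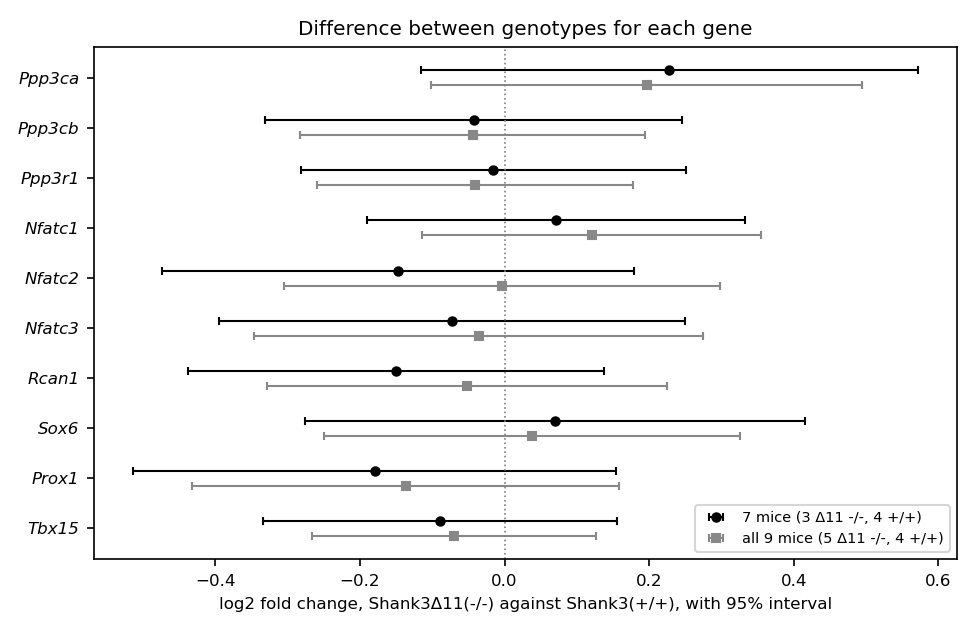
Log2 fold change of each of the 10 genes (x axis) in Shank3Δ11(-/-) against Shank3(+/+) muscle with its 95% interval, from edgeR's quasi-likelihood fit over 7 mice (black circles) and over all 9 mice (grey squares). Every interval crosses 0, and the difference farthest from 0 is that of Ppp3ca at 0.23 in 7 mice.

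The genes differed far more from each other than any of them did between genotypes. Levels were compared between genes as CPM per kilobase of exon, with the summed exons of each gene as its length. Tbx15, a T-box factor that takes part in the formation of fast glycolytic fibres, was highest at 53.2 ± 4.19 CPM per kilobase (SD, n = 9). Ppp3r1 followed at 44.6 ± 4.22. Its range over the mice overlapped that of Tbx15, although Tbx15 was the higher of the 2 in 9 of 9 mice. A gap with no overlap separated Ppp3r1 from the catalytic subunit genes Ppp3ca at 21.8 ± 3.53 and Ppp3cb at 20.3 ± 2.2. Ppp3ca was above Ppp3cb in only 6 of the 9 mice. Rcan1 stood at 13.4 ± 1.82, below Ppp3cb in 9 of 9 mice although their ranges met. A second gap with no overlap lay between Rcan1 and the NFAT genes. Nfatc3 at 4.74 ± 0.75, Nfatc1 at 4.24 ± 0.46 and Nfatc2 at 4.19 ± 0.61 CPM per kilobase did not differ beyond their spread, and their order held in 7 and 6 of the 9 mice. Sox6 at 2.78 ± 0.41 and Prox1 at 2.25 ± 0.34 were lowest, with Sox6 the higher in 7 of 9 mice and below Nfatc2 in 8 of 9. Without the division by length the order differed. Mean CPM was highest for Ppp3ca (218), with Tbx15 at 199, Ppp3cb at 179 and Ppp3r1 at 144. Rcan1 (41.2 CPM) then lay below Nfatc3 (55.5) and Nfatc2 (44.4), and Sox6 (41.3) above Nfatc1 (31.7).

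The spread between mice was moderate for all 10 genes. The coefficient of variation over the 9 mice ran from 7.87% for Tbx15 to 16.2% for Ppp3ca, and the highest mouse exceeded the lowest by 1.30 times (Tbx15) to 1.72 times (Nfatc2). WT4 was the lowest mouse for Ppp3ca, Ppp3cb, Ppp3r1, Nfatc3 and Tbx15. KO5 was the lowest for Nfatc2, Rcan1 and Prox1, and the highest for Ppp3ca.

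**Figure D2:**
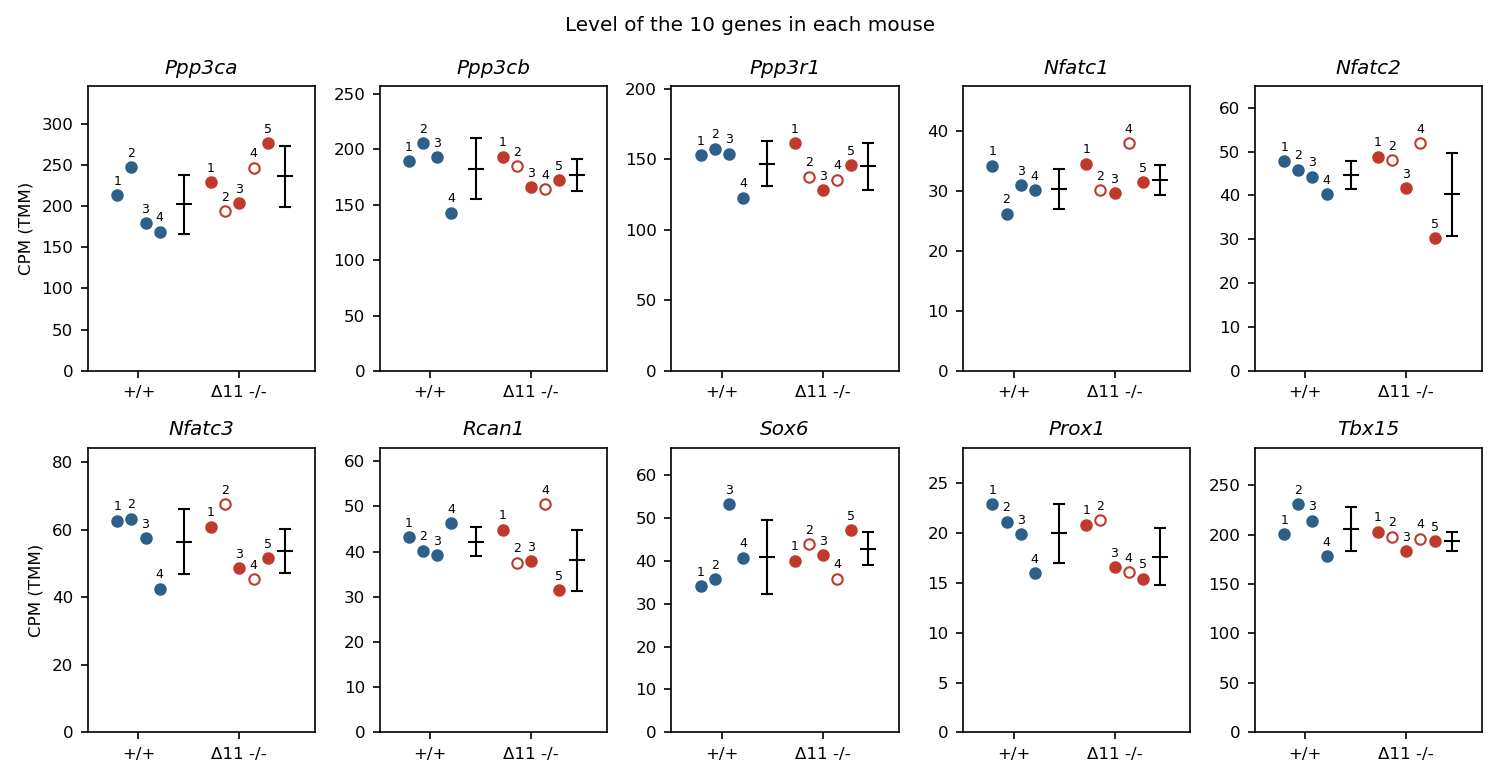
Level of each gene in CPM (y axis, from 0, TMM scaling) in Shank3(+/+) (blue) and Shank3Δ11(-/-) (red) mice, with the mouse number above each point and KO2 and KO4, which the main comparison leaves out, as open circles. Bars give the mean ± SD of the filled points. The genotypes overlap in all 10 genes. WT4 is low in the calcineurin genes, and KO5 is low in Nfatc2 (30.2 CPM) and Rcan1 (31.4 CPM).

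Ppp3ca (ENSMUSG00000028161, chromosome 3: 136670124 to 136937727, plus strand, GRCm38) encodes the alpha catalytic subunit. It had 229 CPM in KO1, 204 in KO3 and 276 in KO5, and 194 and 247 in KO2 and KO4, against 213, 247, 179 and 169 in WT1 to WT4. KO5 was the highest mouse, but WT2 was above KO1 and KO3, so that the genotypes overlapped. The mean was 236 ± 37.1 CPM in Shank3Δ11(-/-) (SD, n = 3) and 202 ± 35.5 CPM in Shank3(+/+) mice (n = 4). The log2 fold change was 0.23 ± 0.16 (SE), with an interval from -0.12 to 0.57 and an unadjusted p of 0.171 by edgeR. The exact 2-sided permutation test over the 7 mice gave p = 0.257, where the smallest p possible is 0.0286. Over the 9 mice the log2 fold change was 0.20 (interval -0.10 to 0.49, p = 0.177 by edgeR, exact p = 0.230). Within the mice with high Xist, KO3 and KO5 exceeded WT3 and WT4 by 0.45 on the log2 scale, whereas in those with low Xist KO1 differed from WT1 and WT2 by -0.0057. With Xist as a term in the fit, the log2 fold change was 0.28 in the 7 mice (unadjusted p of 0.0855 by edgeR) and 0.19 in the 9 (unadjusted p of 0.179). Without KO5 the log2 fold change was 0.088. The share of counts from mitochondrial genes ran from 3.81% to 7.88%, and its r with Ppp3ca over the 9 mice was 0.82 (rho = 0.82, exact permutation p = 0.00736, adjusted over the 10 genes 0.0736), and 0.86 without WT2 and KO4. The part of that share in the level of Ppp3ca was not tested.

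Ppp3cb (ENSMUSG00000021816, chromosome 14: 20499364 to 20546573, minus strand) encodes the beta catalytic subunit. Its level was 193, 166 and 172 CPM in KO1, KO3 and KO5, 185 and 164 CPM in KO2 and KO4, and 189, 206, 193 and 143 CPM in WT1 to WT4. WT2 was the highest and WT4 the lowest mouse, and all 5 Shank3Δ11(-/-) mice lay between them. In Shank3Δ11(-/-) mice it differed by -0.04 ± 0.13 on the log2 scale (interval -0.33 to 0.25, p = 0.750 by edgeR, exact p = 0.886). Over the 9 mice it was -0.04 (interval -0.28 to 0.19). The 2 catalytic genes together made nearly all of the catalytic subunit RNA. Ppp3ca took 49.6% ± 4.00, Ppp3cb 46.5% ± 3.98 and Ppp3cc, the third catalytic gene, 3.91% ± 0.38 of their summed CPM per kilobase (SD, n = 9). The ratio of Ppp3ca to Ppp3cb in CPM was 1.18, 1.23 and 1.60 in KO1, KO3 and KO5, 1.05 and 1.51 in KO2 and KO4, and 1.13, 1.20, 0.93 and 1.18 in WT1 to WT4. KO4 and KO5 were above every other mouse, and the remaining Shank3Δ11(-/-) mice lay among or just beside the Shank3(+/+) mice.

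Ppp3r1 (ENSMUSG00000033953, chromosome 11: 17159263 to 17200375, plus strand) encodes the regulatory subunit that both catalytic subunits bind. It had 161, 128 and 146 CPM in KO1, KO3 and KO5, 138 and 135 CPM in KO2 and KO4, and 153, 157, 154 and 123 CPM in WT1 to WT4. In Shank3(+/+) muscle 3 mice had 153 to 157 CPM and WT4 stood below them. Between genotypes the log2 fold change was -0.02 ± 0.12 (interval -0.28 to 0.25, p = 0.899 by edgeR, exact p = 0.829), and over the 9 mice -0.04 (interval -0.26 to 0.18).

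Nfatc1 (ENSMUSG00000033016, chromosome 18: 80606205 to 80713071, minus strand) encodes the NFAT factor best known for its role in slow fibres. It had 34.5, 29.6 and 31.5 CPM in KO1, KO3 and KO5, 30.1 and 38.0 CPM in KO2 and KO4, and 34.2, 26.2, 31.0 and 30.1 CPM in WT1 to WT4. KO4 was highest and WT2 was lowest. KO4 also had the highest summed markers of chondrocytes, osteoclasts, macrophages, fibroblasts and of blood and lymphatic endothelium. The part of these cell types in the Nfatc1 level was not tested. A log2 fold change of 0.07 ± 0.12 (interval -0.19 to 0.33, p = 0.558 by edgeR, exact p = 0.543) was found in the 7 mice, and 0.12 in the 9 mice (interval -0.11 to 0.36).

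Nfatc2 (ENSMUSG00000027544, chromosome 2: 168476410 to 168601657, minus strand) encodes an NFAT factor with a known part in the growth of myotubes. It had 48.9, 41.7 and 30.2 CPM in KO1, KO3 and KO5, 48.1 and 52.0 CPM in KO2 and KO4, and 47.8, 45.9, 44.3 and 40.3 CPM in WT1 to WT4. KO5 was apart from all other mice, and the other 4 Shank3Δ11(-/-) mice fell within or above the Shank3(+/+) range. The log2 fold change of -0.15 ± 0.15 (interval -0.47 to 0.18, p = 0.341 by edgeR, exact p = 0.486) was -0.0035 over the 9 mice and 0.014 in the 6 mice without KO5. The part of the adipocyte and Schwann cell RNA of KO5 in this value was not tested.

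Nfatc3 (ENSMUSG00000031902, chromosome 8: 106058840 to 106130537, plus strand) is expressed in muscle cells from the myoblast stage on. It had 60.9, 48.6 and 51.5 CPM in KO1, KO3 and KO5, 67.5 and 45.3 CPM in KO2 and KO4, and 62.7, 63.3, 57.4 and 42.6 CPM in WT1 to WT4. The lowest and the highest mouse, WT4 and KO2, came from different genotypes. Its log2 fold change was -0.07 ± 0.15 (interval -0.39 to 0.25, p = 0.630 by edgeR, exact p = 0.714), and -0.04 over the 9 mice (interval -0.35 to 0.28). Nfatc4, which was not among the 10 genes, held 35.0% ± 2.64 of their summed CPM per kilobase, Nfatc3 23.4% ± 3.32, Nfatc1 21.0% ± 2.28 and Nfatc2 20.6% ± 1.69 (SD, n = 9).

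Rcan1 (ENSMUSG00000022951, chromosome 16: 92391953 to 92470867, minus strand) encodes a protein that binds calcineurin and inhibits it. One of its transcripts starts inside the gene and is a known target of NFAT, so that the gene is often read as a measure of calcineurin activity. The table counts reads over the whole gene and does not separate the starts. Rcan1 had 44.9, 37.9 and 31.4 CPM in KO1, KO3 and KO5, 37.5 and 50.4 CPM in KO2 and KO4, and 43.1, 40.2, 39.2 and 46.2 CPM in WT1 to WT4. KO4 was the highest and KO5 the lowest mouse, with all Shank3(+/+) mice between them. The log2 fold change was -0.15 ± 0.13 (interval -0.44 to 0.14, p = 0.274 by edgeR, exact p = 0.314), and -0.05 over the 9 mice (interval -0.33 to 0.23). KO4 and KO5 also had the largest and the smallest library. With the library total Rcan1 had r = 0.78 (rho = 0.70, exact permutation p = 0.0167, adjusted over the 10 genes 0.167), and 0.31 without these 2 mice. Of the Rcan family, Rcan1 made 65.0% ± 4.37, Rcan2 19.3% ± 3.84 and Rcan3 15.7% ± 2.13 of the CPM per kilobase (SD, n = 9).

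The sequences before both RefSeq starts of Rcan1 are shown because the second is the start known to respond to NFAT. Each line gives the 250 bases before the start, from GRCm38.p6, 5′ to 3′ on the strand of the gene. Capitals mark GGAAA, the core of NFAT sites, on either strand (read here as GGAAA or TTTCC).
Rcan1 first start, chr16:92466170-92466419, minus strand: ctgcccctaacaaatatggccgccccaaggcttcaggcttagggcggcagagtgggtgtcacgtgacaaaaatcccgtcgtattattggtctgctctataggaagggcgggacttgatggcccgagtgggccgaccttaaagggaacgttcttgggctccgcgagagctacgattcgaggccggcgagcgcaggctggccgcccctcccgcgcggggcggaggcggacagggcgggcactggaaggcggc
Rcan1 internal start, chr16:92400079-92400328, minus strand: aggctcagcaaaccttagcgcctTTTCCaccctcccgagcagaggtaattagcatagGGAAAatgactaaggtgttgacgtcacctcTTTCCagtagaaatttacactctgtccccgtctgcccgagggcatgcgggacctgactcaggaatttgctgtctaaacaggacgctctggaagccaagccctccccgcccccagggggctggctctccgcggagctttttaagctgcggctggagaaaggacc
The window before the first start held no GGAAA, and that before the internal start held 3, beginning 227, 193 and 163 bases before it. Of the 32851 RefSeq promoter windows of this length, 55.6% held at least 1 and 6.39% at least 3. A match of 5 letters is a description of the sequence and does not show that NFAT binds.

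Sox6 (ENSMUSG00000051910, chromosome 7: 115470872 to 116038796, minus strand) encodes a factor that represses slow fibre genes in developing muscle. It had 40.0, 41.3 and 47.1 CPM in KO1, KO3 and KO5, 43.9 and 35.8 CPM in KO2 and KO4, and 34.0, 35.7, 53.1 and 40.7 CPM in WT1 to WT4. WT3 was the highest and WT1 the lowest mouse, so that Shank3(+/+) mice spanned the whole range. Sox6 differed by 0.07 ± 0.16 on the log2 scale (interval -0.28 to 0.42, p = 0.666 by edgeR, exact p = 0.600), and 0.04 over the 9 mice (interval -0.25 to 0.33). Without WT3 it was 0.23.

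Prox1 (ENSMUSG00000010175, chromosome 1: 190118035 to 190170714, minus strand) encodes a homeobox factor that is required for slow fibre genes in mouse muscle and also defines lymphatic endothelium. It had 20.8, 16.6 and 15.4 CPM in KO1, KO3 and KO5, 21.3 and 16.1 CPM in KO2 and KO4, and 22.9, 21.1, 19.9 and 16.0 CPM in WT1 to WT4. KO3, KO4, KO5 and WT4 lay between 15.4 and 16.6 CPM, and the other 5 mice between 19.9 and 22.9 CPM. Prox1 had a log2 fold change of -0.18 ± 0.15 (interval -0.51 to 0.15, p = 0.260 by edgeR, exact p = 0.314), the lowest of the 10 genes, and -0.14 over the 9 mice (interval -0.43 to 0.16). The summed markers of lymphatic endothelium lay between 98.7 and 152.6 CPM over the 9 mice, and their part in the Prox1 level was not tested.

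Tbx15 (ENSMUSG00000027868, chromosome 3: 99240381 to 99354259, plus strand) varied least. It had 203, 183 and 193 CPM in KO1, KO3 and KO5, 198 and 196 CPM in KO2 and KO4, and 200, 230, 214 and 178 CPM in WT1 to WT4. The Shank3(+/+) mice spanned the whole range, with all 5 Shank3Δ11(-/-) mice inside it. Its log2 fold change was -0.09 ± 0.11 (interval -0.33 to 0.16, p = 0.436 by edgeR, exact p = 0.429), and -0.07 over the 9 mice (interval -0.27 to 0.13).

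The 10 genes were next compared with each other over the 9 mice. Some pairs among Ppp3cb, Ppp3r1, Nfatc3, Prox1 and Tbx15 moved together over the 9 mice, where no pair with Ppp3ca, Nfatc1, Nfatc2, Rcan1 or Sox6 passed the test. No r was computed within either genotype. Of the 45 pairs, 5 had an exact permutation p that passed 0.05 after adjustment over all 45, and 10 passed it before. The median r of the 45 pairs was 0.10, 20 of them had a negative r, and the lowest was -0.58 (Rcan1 with Sox6).

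Ppp3cb and Ppp3r1, which encode partners in 1 enzyme, had r = 0.90 and rho = 0.95 (exact permutation p = 0.000912, adjusted 0.0198). The lowest values of both were in WT4, and KO1, WT2, WT1 and WT3 were the 4 highest mice for both. The other catalytic subunit gene, Ppp3ca, had r = 0.41 with Ppp3r1 and 0.30 with Ppp3cb, with adjusted exact p-values of 0.762 and 0.848. Whether the r of Ppp3cb and that of Ppp3ca with Ppp3r1 differ was not tested. Ppp3cb also moved with Nfatc3 (r = 0.89, rho = 0.78, adjusted exact p = 0.0198) and with Tbx15 (r = 0.89, rho = 0.93, adjusted exact p = 0.0198). Nfatc3 moved with Prox1 (r = 0.91, rho = 0.85, adjusted exact p = 0.0324), and Ppp3r1 with Tbx15 (r = 0.83, rho = 0.90, adjusted exact p = 0.0395). These p-values are those of r. By rho, Ppp3cb with Nfatc3 (adjusted exact p = 0.155) and Nfatc3 with Prox1 (0.0683) did not pass. The next pairs, Ppp3cb with Prox1 at r = 0.81 (adjusted exact p = 0.0657) and Nfatc2 with Rcan1 at r = 0.74 (adjusted exact p = 0.170), did not pass. Nfatc2 and Rcan1 were both lowest in KO5 and both highest in KO4.

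**Figure D3:**
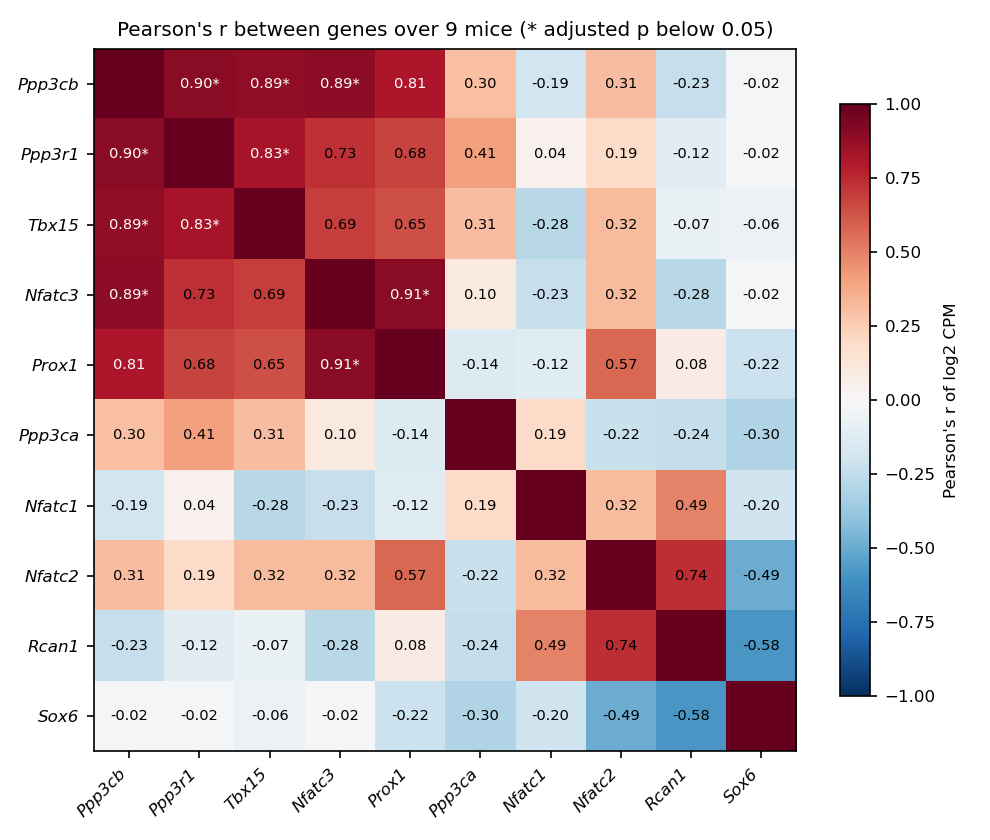
Pearson's r of log2 CPM over the 9 mice for each pair of the 10 genes (colour and number, from -1 to 1), with an asterisk where the exact permutation p adjusted over 45 pairs is below 0.05. The 5 marked pairs all lie among Ppp3cb, Ppp3r1, Tbx15, Nfatc3 and Prox1.

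The r of these pairs and their adjusted p-values were recomputed in smaller sets of mice. When each mouse was left out in turn, r stayed between 0.85 and 0.94 for Ppp3cb with Ppp3r1, between 0.84 and 0.96 for Ppp3cb with Nfatc3, between 0.86 and 0.91 for Ppp3cb with Tbx15, between 0.89 and 0.96 for Nfatc3 with Prox1 and between 0.75 and 0.89 for Ppp3r1 with Tbx15. However, none of the 45 pairs passed after adjustment without KO3, WT1, WT2, WT3 or WT4. With the 2 mice farthest from the median of the first gene left out, r was 0.83, 0.77, 0.93, 0.90 and 0.60 in the same order and no pair passed. In the 7 mice of the main comparison 5 pairs passed as well, but not the same 5. Ppp3cb passed with Ppp3r1, Nfatc3 and Tbx15, while Nfatc3 with Prox1 (adjusted exact p = 0.0893) and Ppp3r1 with Tbx15 (0.103) did not. In their place stood Ppp3r1 with Nfatc3 (r = 0.94, adjusted exact p = 0.0268) and Nfatc2 with Prox1 (r = 0.83, adjusted exact p = 0.0268), whose r over the 9 mice were 0.73 and 0.57. Once the means of the mice with high and with low Xist were removed, Ppp3cb with Ppp3r1 alone passed (r = 0.87, adjusted exact p = 0.00707). The classes hold 5 and 4 mice, and no r was computed within them. Such relations were also common among other genes. An r of 0.8 or more was reached with Nfatc3 by 5.57% of all genes tested, with Prox1 by 4.07%, with Ppp3cb by 3.29% and with Ppp3r1 by 2.65%, but with Tbx15 by 0.479%.

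**Figure D4:**
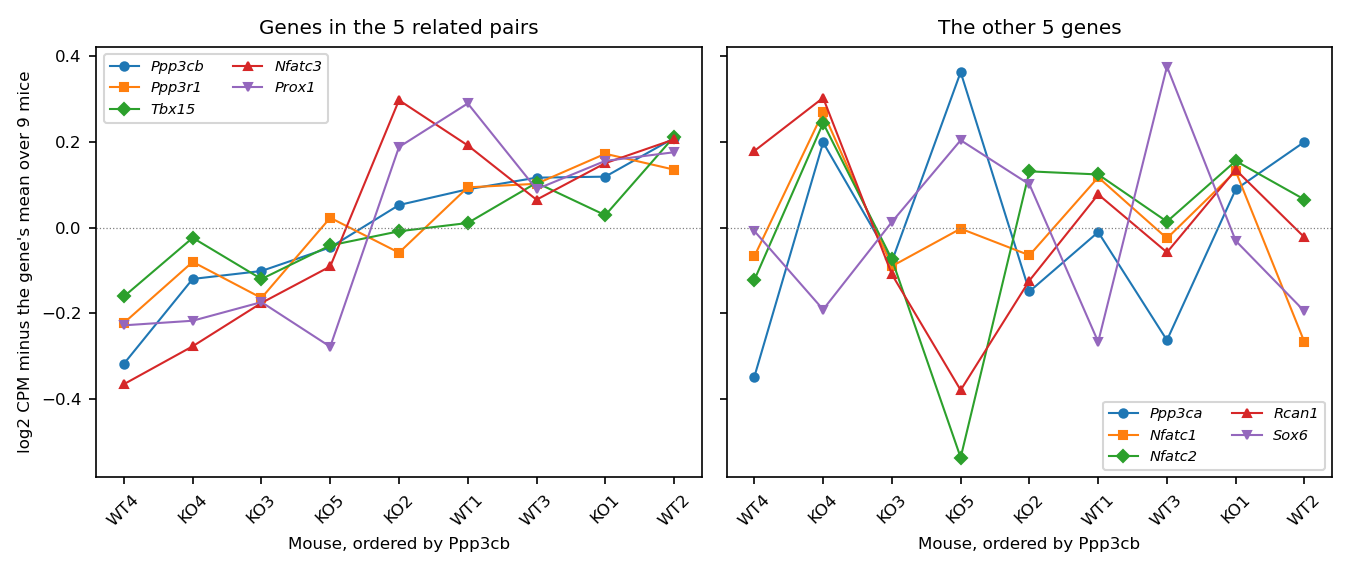
Log2 CPM of each gene minus its own mean over the 9 mice (y axis), with the mice ordered from the lowest to the highest Ppp3cb (x axis). On the left, the 5 genes of the related pairs start low in WT4, KO4 and KO3 and end high in KO1 and WT2. On the right, the other 5 genes follow no such order, and Nfatc2 and Rcan1 drop together in KO5.

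The promoters of Ppp3cb and Ppp3r1 are shown because these genes moved together most closely over ranks. The windows come from RefSeq (GRCm38.p6), 5′ to 3′ on the strand of the gene, and capitals mark GGAAA on either strand. The window of Ppp3r1 is printed up to the first base of its annotated first exon.
Ppp3cb, chr14:20546574-20546823, minus strand: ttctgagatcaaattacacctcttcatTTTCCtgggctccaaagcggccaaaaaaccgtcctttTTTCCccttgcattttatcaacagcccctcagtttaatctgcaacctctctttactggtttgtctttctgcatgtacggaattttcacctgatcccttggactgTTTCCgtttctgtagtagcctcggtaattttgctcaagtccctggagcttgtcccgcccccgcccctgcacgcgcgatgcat
Ppp3r1, chr11:17159048-17159262, plus strand: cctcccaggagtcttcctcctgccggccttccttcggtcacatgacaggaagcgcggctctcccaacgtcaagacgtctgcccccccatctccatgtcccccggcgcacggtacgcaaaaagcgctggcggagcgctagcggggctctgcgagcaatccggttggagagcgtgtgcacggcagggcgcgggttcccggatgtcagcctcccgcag
The 250 bases before the start held 3 copies of GGAAA in Ppp3cb, beginning 223, 186 and 82 bases before the start, and none in Ppp3r1. Both windows held 1 copy of CANNTG, the E-box that MyoD-type factors bind, as did 66.2% of all windows at least once. Neither motif contains the other. Windows were found for 7 of the 10 genes.

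For each of the 10 genes, the gene with the most similar pattern over the 9 mice was sought among 17970 others with a mean of at least 1 CPM. The nearest were Nkap for Ppp3ca (r = 0.98), Ccne2 for Ppp3cb (r = 0.98), Dr1 for Ppp3r1 (r = 0.98) and Cep350 for Nfatc3 (r = 0.99). Plek was nearest to Nfatc1 (r = 0.97), Vsig10 to Nfatc2 (r = 0.95) and Tnfrsf12a to Rcan1 (r = 0.95). Sort1 was nearest to Sox6 (r = 0.97), Zfp397 to Prox1 (r = 0.97) and Atg4a-ps to Tbx15 (r = 0.96). No 2 of the 10 genes had the same nearest gene. These values are the highest of many and describe likeness in these 9 mice alone.

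Other genes of the pathway were counted in the same fit. Of 25 further genes that act with calcineurin and NFAT (calmodulins, scaffolds such as the Akap and Myoz genes, the NFAT kinases and others), 12 had a higher and 13 a lower mean in Shank3Δ11(-/-) mice, and their median was -0.00091 on the log2 scale. One had an unadjusted p below 0.05 in the lower direction, where 0.917% of all genes did. It was Homer2, a scaffold protein that competes with calcineurin for NFAT, with 15.3, 15.2 and 16.9 CPM in KO1, KO3 and KO5 and 20.5, 18.3, 21.8 and 18.8 CPM in WT1 to WT4. It differed by -0.32 on the log2 scale in the 7 mice (unadjusted p of 0.0190 by edgeR, adjusted p = 1.00) and by -0.22 in the 9 (unadjusted p of 0.0752), where KO4 had 20.7 CPM.

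Of 27 other regulators of fibre type, 9 had a higher and 18 a lower mean, and the median was -0.04 on the log2 scale. This split moved with the mice in the fit, since over the 9 mice 13 were higher and 14 lower (median -0.017), without KO3 16 and 11 (median 0.015) and without WT3 14 and 13 (median 0.0080). Maf, of the large Maf factors that drive type IIb myosin, was the single gene with an unadjusted p below 0.05 in the higher direction, where 1.16% of all genes were found. It had 99.5, 83.3 and 103 CPM in KO1, KO3 and KO5 and 86.5, 81.5, 70.5 and 77.0 CPM in WT1 to WT4, and KO3 fell below WT1. Maf differed by 0.27 on the log2 scale in the 7 mice (unadjusted p of 0.0371 by edgeR, adjusted p = 1.00), by 0.26 in the 9 (unadjusted p of 0.0192), and by 0.20 in the 6 without KO5 (unadjusted p of 0.145).

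Contractile proteins exist in slow and fast isoforms, which these regulators control. Of 11 slow isoform genes, 10 had a lower mean in Shank3Δ11(-/-) mice, the median was -0.34 on the log2 scale, and 3 had an unadjusted p below 0.05, where 0.917% of all genes were lower at that p. These were Tnnc1, slow troponin C (-0.43, unadjusted p of 0.0261 by edgeR), Myl3, slow myosin light chain (-0.41, 0.0253), and Tnnt1, slow troponin T (-0.34, 0.0457), each with adjusted p = 1.00. Tnnc1 had 345, 368 and 236 CPM in KO1, KO3 and KO5 and 371, 466, 380 and 487 CPM in WT1 to WT4, with no overlap among these 7, as in 2.84% of all genes. KO2 and KO4 had 311 and 389 CPM, and KO4 was above WT1 and WT3, so that the genotypes overlapped over the 9 mice. Myh7, the slow myosin heavy chain, had 485, 694 and 331 CPM in KO1, KO3 and KO5 against 584, 507, 873 and 844 CPM in WT1 to WT4 (log2 fold change -0.48, unadjusted p of 0.0968 by edgeR). In the 6 mice without KO5, 10 of the 11 again had a lower mean, with a median of -0.20. Of them 0 had an unadjusted p below 0.05 by edgeR, where 101 of 22230 genes were lower at that p. Without WT4 the median was -0.25 with 0 at that p, where 167 of 21558 genes were lower. Without KO3 it was -0.51 with 6 at that p, where 319 of 22244 genes were lower. In that fit 1 of the 11 was called (Myh7b, log2 fold change -1.16, adjusted p = 0.0832 by edgeR), among 4 of all genes tested. Over the 9 mice the median was -0.24, with Tnnc1 alone at that p, where 190 of 21735 genes were lower. In the same 7 mice, 3 of 4 Schwann cell markers and 3 of the 3 adipocyte markers that passed the filter (of 5) were higher at an unadjusted p below 0.05 by edgeR. Of all genes, 1.16% were higher at that p. All 4 Schwann cell markers summed to 406 CPM and all 5 adipocyte markers to 281 CPM in KO5. Their part in the isoform values was not tested.

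Of 11 fast isoform genes, 8 had a higher and 3 a lower mean, and the median was 0.06 on the log2 scale. Pvalb, the calcium buffer parvalbumin (log2 fold change 1.23, unadjusted p of 0.0331 by edgeR), and Actn3, the fast alpha-actinin (0.62, 0.0413), were the genes at an unadjusted p below 0.05, where 1.16% of all genes were higher, each with adjusted p = 1.00. Pvalb was 25.4, 47.7 and 102 CPM in KO1, KO3 and KO5, 25.8 and 119 CPM in KO2 and KO4, and 15.6, 23.0, 33.1 and 28.2 CPM in WT1 to WT4. KO4 and KO5 were thus far above the other 7 mice. Without KO5 neither gene was at that p, with log2 fold changes of 0.54 (Pvalb) and 0.33 (Actn3). The list then had 6 genes higher and 5 lower (median 0.0059). In all 9 mice except KO5 it had 5 higher and 6 lower (median -0.0026). The developmental myosins Myh3 and Myh8 went 1 in each direction and neither was at an unadjusted p below 0.05. KO5 had the lowest Myh3, at 2069 CPM against 4176 to 5833 CPM in the other mice. It also had the highest Myh8, at 19277 CPM against 13471 to 17088 CPM. The part of these 2 genes in the slow and fast isoform values of KO5 was not tested. Of these 76 companion genes, 0 were called by edgeR, DESeq2 or limma-voom in the 7 mice, and by edgeR 7 had an unadjusted p below 0.05, where 2.08% of all genes did. Over the 9 mice this held for 4 of the 76, where 2.03% of all genes did. In the 6 mice without KO5 it held for 1 of the 76, where 224 of 22230 genes did.

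The summed CPM of the slow isoforms was 19.2%, 22.1% and 12.4% of that of the fast isoforms in KO1, KO3 and KO5, 20.6% and 20.5% in KO2 and KO4, and 21.5%, 21.5%, 26.7% and 23.3% in WT1 to WT4. KO3 lay among the Shank3(+/+) mice, KO1, KO2 and KO4 just under them and KO5 far below. The log2 ratio was -2.52 ± 0.43 (SD, n = 3) in Shank3Δ11(-/-) and -2.11 ± 0.15 (n = 4) in Shank3(+/+) mice. The difference of -0.41 had an exact 2-sided permutation p of 0.0857 in the 7 mice, and that of -0.32 in the 9 mice a p of 0.0714. Without KO5 the difference was -0.17 in both sets of mice (exact p = 0.333 in the 6 and 0.0857 in the 8 mice).

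**Figure D5:**
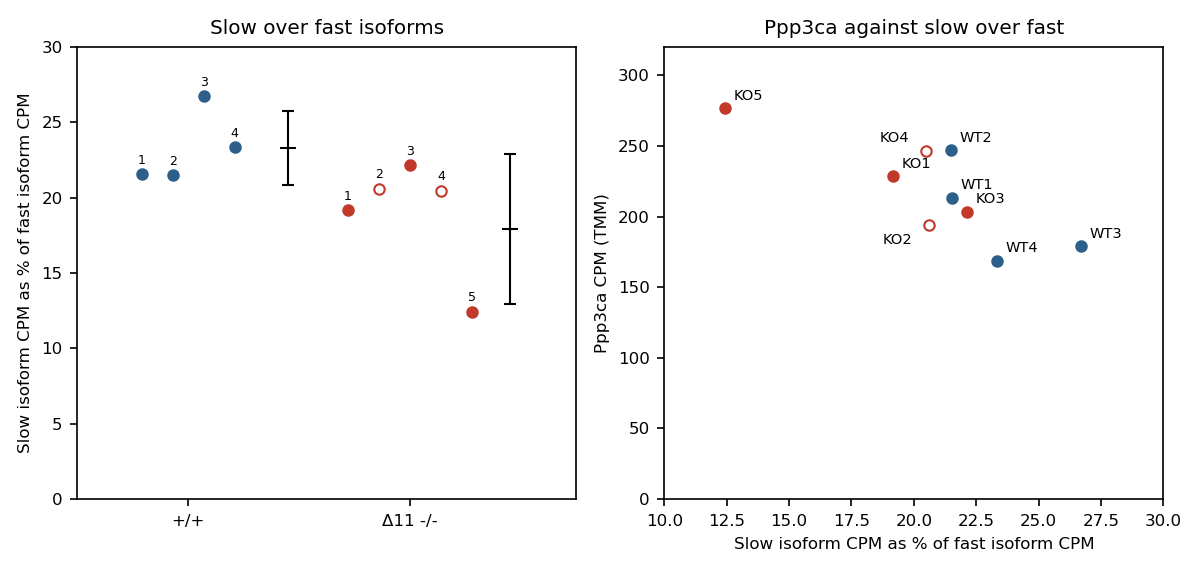
Left, summed CPM of 11 slow isoform genes as a percentage of that of 11 fast isoform genes in each mouse, with the mean ± SD of the filled points (open circles, KO2 and KO4). Right, Ppp3ca in CPM (y axis) against the same percentage (x axis, from 10). KO5 has the lowest percentage (12.4%) and the highest Ppp3ca (276 CPM).

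None of the 10 genes followed the log2 ratio of slow to fast isoforms over the 9 mice after adjustment over the 10. Ppp3ca came nearest, with r = -0.76 and rho = -0.78 (exact permutation p = 0.00601, adjusted 0.0601), and with r = -0.61 once KO5 and WT3 were left out. In all, 40 relations between the 10 genes and 4 measures of the mice were computed (slow to fast ratio, mitochondrial share, ribosomal protein share and library total), and 0 passed an adjusted exact p of 0.05 within their measure.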

How the data were processed

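RNA of the gastrocnemius of 9 newborn mice was sequenced. Per the submitters' notes and the study's methods, the authors mapped reads with HISAT2 to mm10 (GRCm38), kept concordant pairs and deposited raw read counts per Ensembl gene from featureCounts (Subread). The annotation release, strandedness and handling of multi-mapping reads were not given in the sources used here. From the counts, log2 fold changes and p-values were computed with edgeR 4.0.16 (R 4.3.3, TMM, robust quasi-likelihood fit, filterByExpr with a minimum count of 10 and minimum total of 15) over all genes with Benjamini-Hochberg adjustment. DESeq2 1.42.0 and limma 3.58.1 (voom) were alternatives, as were other scalings, filters, an Xist term, a replicate block and leaving out each mouse. The fit was tested on simulated data. Correlations used log2 CPM (prior count 2) and all orders of the mice. Symbols, positions and exon lengths came from GENCODE vM21 (GRCm38), promoter windows from RefSeq. The 10 genes and the companion lists were chosen with earlier results of these data known. Named genes were the 10, up to 3 companion genes per list and direction with the smallest p below 0.05, the most similar gene of each, and Shank3, Xist and Myh7. Family members set beside the 10 for their shares (Ppp3cc, Nfatc4, Rcan2, Rcan3), both developmental myosins and Myh7b fall outside this rule and were named after their values were seen. The count columns of all 9 mice mapped to samples, and no pair of libraries of the same genotype agreed within sampling noise. Pairs across the genotypes were not checked.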

Additional observations from a re-analysis of the deposited data

Results flagged for a closer look

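In 22 groups of values (the 10 genes and the log2 ratio of slow to fast isoforms, in 5 Shank3Δ11(-/-) and in 4 Shank3(+/+) mice), 2 held a mouse far from the others by Dixon's ratio, and chance gives about 1 in 20. The log2 ratio of slow to fast isoforms was -3.01 in KO5, below the 4 other Shank3Δ11(-/-) mice. Log2 CPM of Ppp3r1 was 6.94 in WT4, below the 3 other Shank3(+/+) mice. The cause was not tested in either.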

How the results depend on the processing

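Calls of the 10 genes stayed at 0 under every alternative run. Of 200 log2 fold changes of single genes under alternatives, 181 kept their direction and side of an unadjusted p of 0.05, 18 reversed, to values of at most 0.10 in size, and 1, Ppp3ca without WT2, reached that p at 0.34. With an Xist term in 7 mice Ppp3r1 was 0.014. In all 9 mice except KO5, a choice made after seeing the data, Nfatc2 was 0.10, Rcan1 0.023 and Sox6 -0.014. With each mouse left out in turn, Ppp3cb ran from -0.14 to 0.021, Ppp3r1 from -0.094 to 0.069, Nfatc2 from -0.30 to 0.014 and Sox6 from -0.015 to 0.23. Ppp3ca ran from 0.088 to 0.34, Rcan1 from -0.28 to -0.038, Prox1 from -0.31 to -0.10, Nfatc3 from -0.18 to -0.0030, Nfatc1 from 0.0075 to 0.14 and Tbx15 from -0.15 to -0.029 with their direction kept. Companion genes called ran from 0 to 1 (Myh7b without KO3), and the slow to fast difference from -0.59 to -0.17. Of the 45 pairs, 5 passed in the 7 mice (3 of them among the 5 of the 9 mice), 6 each with genotype means removed and with library totals alone, where Ppp3cb with Prox1 was added (adjusted exact p = 0.0347 and 0.0384), 3 by rho, 0 without the 2 farthest mice, 1 with Xist class means removed and 0 to 5 with 1 mouse left out, both of the latter chosen after seeing the data. The cause was not tested. Genes called among all tested were 6 by DESeq2, 1 without the filter, 1 with an Xist term, 15 without KO1, 4 without KO3 and 1 without WT2, against 0 in the 7 mice. Replicate numbers were not taken to pair the mice, since the labels tie them to no litter or day and same-numbered mice correlated at 0.37, 0.05, 0.36 and 0.10 in their deviations over the 9 mice. KO1 with WT1 and KO3 with WT3 were each other's best match, also in the 7 mice (0.38 and 0.35), KO4 matched WT4 best, and KO2, WT2 and WT4 matched WT1, KO1 and KO3. With the number as a replicate block, calls among all genes were 9 in 7 mice and 2 in 9 mice, 0 of them among the 10. In the 7 mice only KO1 with WT1 and KO3 with WT3 share a number, and KO5 shares its number with no mouse in either set. A mouse alone under its number adds nothing to the genotype difference in this fit. The block values therefore leave out KO5, and the block and the loss of KO5 cannot be told apart in them. In that block Nfatc1 was -0.025, Rcan1 0.0040 and Sox6 -0.065 in 7 mice, and Nfatc2 0.10 and Rcan1 0.015 in 9 mice. The median of the slow isoforms was -0.12 with the block in 7 mice (9 lower, 2 higher) and -0.15 in 9 mice (10 lower, 1 higher). In the 7 mice, 1 slow isoform in each direction had an unadjusted p below 0.05 by edgeR, where 450 of 21809 genes were higher and 394 lower. With the block in 7 mice Tnnc1 was -0.073 (unadjusted p of 0.532 by edgeR), Myl3 -0.14 (0.264) and Tnnt1 -0.10 (0.389). Whole-gene counts do not separate isoforms, and at 3 against 4 mice the intervals of the 10 genes reach 0.57 on the log2 scale.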
